A study of Homo sapiens with 4 samples.

Results

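The replication-dependent histone genes encode the linker histone H1 and the core histones H2A, H2B, H3 and H4. They were taken as all genes whose symbol begins HIST1H, HIST2H, HIST3H or HIST4H in every count file. This gave 60 of 19192 genes: 5 for H1, 16 for H2A, 13 for H2B, 13 for H3 and 13 for H4. The rule used the names alone and no measured value, but it was set with earlier results of these data known. The lettered series has gaps: symbols such as HIST1H1E, HIST1H3E and HIST1H4E had no entry in the count data. Sums, shares and sequence comparisons below therefore cover these 60 genes and not the whole family. In the GRCh38 build, 45 of them lay in the HIST1 cluster on chromosome 6 between positions 25726132 and 27893843. A further 11 lay in the HIST2 cluster on chromosome 1 (149810406 to 149887916), 3 in the HIST3 cluster on chromosome 1 (228424845 to 228460470), and HIST4H4 stood alone on chromosome 12.

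The cells were SW480, an established human colorectal adenocarcinoma line, in 2 derived lines. The line labelled LIN28B OE+IMP1-/- knockout combined overexpression of LIN28B, an RNA-binding protein that blocks maturation of let-7 microRNAs, with a knockout of IMP1. IMP1 is the product of the gene IGF2BP1 and binds mRNAs, affecting their stability and translation. The line labelled LIN28B OE carried the overexpression alone, so both lines shared it. Each line gave 1 ribosome footprint library and 1 RNA library, each from 3 pooled culture plates. The labels do not say whether the knockout line is a single clone. The cell line field of the OE-labelled RNA library reads SW840, whereas its source field reads SW480. Since each line and assay had a lone library, differences carry no replicate check and none was tested. The 95% intervals given with ratios cover counting error only. PCR copies counted as separate molecules would make them too narrow.

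Total counts were 6813372 in the knockout-labelled RNA library and 5429224 in the OE-labelled RNA library. They were 3260262 in the knockout-labelled footprint library and 2732760 in the OE-labelled footprint library. The targeted gene was not lower where its knockout was labelled, and which part of it was deleted is not given: IGF2BP1 had 1974 RNA counts in the knockout-labelled library and 840 in the OE-labelled library, 1.73-fold higher after scaling. LIN28B had 303 RNA counts in the knockout-labelled library and 1205 in the OE-labelled library, 5.41-fold lower. The libraries are therefore called knockout-labelled and OE-labelled, and each direction below rests on those labels. Of 11 colorectal epithelial markers, 7 reached a mean RNA count of 50, while KRT20, LGALS4 and CDH17 were at 0 in all 4 libraries. The summed RNA level of these 11 markers was 5161 CPM (counts relative to library size) in the knockout-labelled library and 10027 CPM in the OE-labelled library. KRT8 and KRT18 made up most of this sum, while CDH1 had 614 RNA counts in the knockout-labelled library and 243 in the OE-labelled library. PTPRC, COL1A2 and DCN, which mark blood cells and fibroblasts, were at 0 throughout. Of the 11 markers of blood cells, fibroblasts and endothelium, CD68 was highest, with 163 RNA counts in the knockout-labelled library and 58 in the OE-labelled library, and COL1A1 had 55 in the knockout-labelled library and 2 in the OE-labelled library. The part of these markers in the histone results was not tested.

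Histones package DNA into nucleosomes, and the replication-dependent genes supply them while DNA is copied in S phase. Their mRNAs are unusual among animal mRNAs in ending at a conserved stem-loop instead of a poly(A) tail. The stem-loop-binding protein SLBP holds that structure through processing, export and translation, and the mRNAs are degraded when replication ends. NPAT drives transcription of these genes in S phase, whereas replacement variants such as H3F3A are made from ordinary polyadenylated mRNAs through the cell cycle.

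The stem-loop sequences are shown because they define the family, and because 3 H4 genes carry a version of their own. Its part in the footprint results below was not tested. The 16-letter sequence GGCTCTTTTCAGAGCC, with any base allowed at positions 4 and 13 counted from its 5′ end, was searched on the sense strand of the listed GENCODE release 29 transcripts (GRCh38). It occurred in 18 of 19176 listed transcripts, a share of 0.0939%. Of these, 17 were histone members and the only other gene was NOP58. For 34 members the listed transcript held no 3′ UTR, so the stem-loop lay outside what could be searched. Among the 26 members with a listed 3′ UTR, it was found in 6 of 6 H2A, 5 of 7 H2B, 3 of 5 H3 and 3 of 7 H4 genes. Only 1 H1 gene, HIST1H1T, had a listed 3′ UTR, and it held no match. Capitals mark the stem-loop in each line.

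HIST1H3H, chr6:27810511-27810536, plus strand: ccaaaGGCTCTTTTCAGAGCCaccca
HIST1H2AI, chr6:27808642-27808667, plus strand: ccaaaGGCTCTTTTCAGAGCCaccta
HIST2H2AA3, chr1:149842218-149842243, minus strand: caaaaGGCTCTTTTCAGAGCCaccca
HIST2H3A, chr1:149853100-149853125, plus strand: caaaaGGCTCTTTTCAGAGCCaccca
HIST1H2AG, chr6:27133510-27133535, plus strand: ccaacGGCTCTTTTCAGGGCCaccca
HIST1H4J, chr6:27824454-27824479, plus strand: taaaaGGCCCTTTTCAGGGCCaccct
HIST1H4B, chr6:26026896-26026921, minus strand: ccaatGGCCCTTTTCAGGGCCgccca
HIST4H4, chr12:14770719-14770744, minus strand: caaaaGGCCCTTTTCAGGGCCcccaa

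The version in HIST1H3H was shared by 13 of the 17 genes, all of them H2A, H2B or H3. The version in HIST1H4J was held by the 3 H4 genes alone, and HIST1H2AG had a version of its own. The 60 members had 56 distinct coding sequences and 33 distinct proteins. All 9 HIST1 H3 genes among the members encoded the same protein, as did 12 of the 13 H4 members, all but HIST1H4G. In 4 pairs the whole coding sequence was identical: HIST2H2AA3 with HIST2H2AA4, HIST2H3A with HIST2H3C, HIST2H4A with HIST2H4B, and HIST1H4J with HIST1H4K. How a read that fitted several copies was counted is not given in the sources used here, so single members are less certain than class sums. Over all members, a median of 85.9% of the 30-base stretches of a coding sequence occurred in no other member, and this was 68.2% for H2B and 96.3% for H4. Footprint fragments were 18 to 34 nt, so those under 30 bases can fit more members than these shares show. Genes outside the members were not compared.

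Promoters are shown for an H2B gene and for the H4 pair on which the footprint results turned. Promoter windows from RefSeq (GRCh38.p14) were matched for 53 of 60 members, and the 250 bases before each start were searched on both strands for 3 motifs. The octamer ATTTGCAT (reverse ATGCAAAT), a known element of H2B promoters, was present in 7 of 11 H2B, 10 of 15 H2A and 1 of 11 H3 promoters. It was in 0 of 11 H4 and 0 of 5 H1 promoters, and in 1.63% of all 35116 promoters. H2A and H2B genes often lie head to head, so their windows can overlap and hold the same octamer. The H3 promoter with the octamer, that of HIST1H3D, was the same window as that matched to the H2A gene HIST1H2AD (chr6:26199244-26199543, minus strand). That octamer was thus counted in both classes, and the window does not adjoin the listed HIST1H3D transcript (chr6:26196840-26197250). The TATA box TATAAA (reverse TTTATA) was in 67.9% of member promoters, against 10.7% of all promoters. CCAAT (reverse ATTGG) was in every matched H1, H2A, H2B and H3 promoter, in 3 of 11 H4 promoters and in 32% of all promoters. In the 100 bases before the start below, capitals mark these motifs on the printed strand.

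HIST1H2BK, chr6:27146859-27146958, minus strand: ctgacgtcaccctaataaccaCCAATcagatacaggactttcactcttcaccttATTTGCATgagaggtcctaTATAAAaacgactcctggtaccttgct
HIST1H4J, chr6:27823992-27824091, plus strand: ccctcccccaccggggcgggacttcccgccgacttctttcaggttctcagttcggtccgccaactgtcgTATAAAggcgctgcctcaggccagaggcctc
HIST1H4K, chr6:27831561-27831660, minus strand: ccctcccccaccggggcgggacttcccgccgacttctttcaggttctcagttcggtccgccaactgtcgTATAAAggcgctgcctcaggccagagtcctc

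The promoters of HIST1H4J and HIST1H4K differed at 5 of 250 bases, so the pair was also alike upstream of its identical coding sequence.

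Histone mRNAs formed a small and nearly equal share of both RNA libraries. Summed over all 60 members, they held 25672 counts (0.377% of the library) in the knockout-labelled RNA library and 20604 counts (0.380%) in the OE-labelled RNA library. Scaled with TMM factors, which align the bulk of genes between libraries, the log2 ratio of the sums was −0.13 (−0.15 to −0.10), knockout-labelled over OE-labelled as throughout. In these bulk libraries, fewer cells in S phase and less histone RNA per cell cannot be told apart. The class sums lay close together: −0.15 for H1, −0.15 for H2A, −0.20 for H2B, −0.13 for H3 and −0.03 for H4, whose interval of −0.09 to 0.03 included 0. On total-count scaling the median of all genes shifted by 0.12, the sum of all members stood at −0.01 and that of H4 at 0.09.

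A mean count of at least 50 over both libraries was reached by 53 members in RNA, and by the same number in footprints and in both assays. The 7 that missed it were HIST1H1A, HIST1H1D, HIST1H1T, HIST1H2AA, HIST1H2AK, HIST1H4F and HIST1H4G. HIST1H1T encodes the testis linker histone, and its RNA counts were 4 in the knockout-labelled library and 0 in the OE-labelled library. HIST1H2AK was nearest to the threshold, with RNA counts of 55 in the knockout-labelled library and 30 in the OE-labelled library. No member was at 0 in all 4 libraries. A count of 0 allows a level of up to 0.440 CPM in the knockout-labelled RNA library and 0.553 CPM in the OE-labelled RNA library, the level of 3 counts.

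Of the 53 measured members, 38 had an RNA ratio below 0 and 15 above it, with a median log2 ratio of −0.19 against 0.01 for all 9855 genes tested. The interval lay wholly below 0 for 21 members and wholly above it for 3. Such intervals were not counted over all genes, so these counts have no background. The side of 0 also depends on scaling: with total counts the member median was −0.08 and that of all genes 0.13. None was 1.5-fold higher, against 10.5% of all genes, and 4 were 1.5-fold lower, against 10.5% of all genes (with total-count scaling, 15.1% of all genes were higher and 7.57% lower). At 2-fold, 1 member was lower, against 3.49% of all genes, and none was higher, against 2.99%. The number of members past 1.5-fold in RNA was thus not above the background share, and the ratios ran from −1.21 to 0.30. The 4 lower genes were HIST1H2AB, HIST1H4A, HIST1H2BO and HIST1H2AH, all in the HIST1 cluster.

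HIST1H2AB, which encodes an H2A, had 45 RNA counts in the knockout-labelled library and 77 in the OE-labelled library, a log2 ratio of −1.21 (−1.78 to −0.67). HIST1H4A had 121 RNA counts in the knockout-labelled library and 157 in the OE-labelled library (−0.82, −1.17 to −0.47). HIST1H2BO had 187 in the knockout-labelled library and 237 in the OE-labelled library (−0.79, −1.07 to −0.50). These are among the less counted members. HIST1H2AH, with 252 RNA counts in the knockout-labelled library and 288 in the OE-labelled library, had a log2 ratio of −0.64 (−0.89 to −0.39). The fifth lowest, the H2B gene HIST1H2BM, stood at −0.57 with 88 counts in the knockout-labelled library and 96 in the OE-labelled library. At the other end were HIST1H3I (0.30), HIST4H4 (0.20), HIST1H4C (0.18), HIST2H4A (0.14) and HIST1H3C (0.13), all of them H3 or H4 genes. HIST1H3I had 273 RNA counts in the knockout-labelled library and 163 in the OE-labelled library, with an interval of 0.01 to 0.59.

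The linker histone gene HIST1H1C held 77.1% of H1 RNA counts in the knockout-labelled library and 76.5% in the OE-labelled library, with a log2 ratio of −0.14. HIST1H1B, the only other measured H1 gene, had 360 RNA counts in the knockout-labelled library and 316 in the OE-labelled library (−0.26). Among H2A genes, HIST1H2AC led with 1540 RNA counts in the knockout-labelled library and 1055 in the OE-labelled library (0.10), while HIST1H2AG stood at −0.34. HIST1H2AC and HIST1H2BD were also the only members whose listed transcript had 2 exons. Among H2B genes, HIST2H2BE had 624 RNA counts in the knockout-labelled library and 528 in the OE-labelled library, a log2 ratio of −0.20. HIST2H2BF stood at −0.34, HIST1H2BC at −0.10 and HIST1H2BD at 0.01. Of the 13 H2B genes, 11 lay below 0 in RNA and 2 above it, with a class median of −0.20. Among H3 genes, HIST1H3H had 791 RNA counts in the knockout-labelled library and 795 in the OE-labelled library, a log2 ratio of −0.45. HIST1H3G stood at −0.38 and HIST1H3B at −0.28.

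The 2 largest clusters gave different medians in RNA, −0.25 over 38 measured HIST1 genes and −0.00 over 11 HIST2 genes. The non-histone genes that lie within the HIST1 span numbered 18, of which 5 were measured in RNA, with a median of 0.10. Members whose listed 3′ UTR exceeded 200 bases had a median of −0.09 (16 genes), and the other 37 had −0.22. Listed UTRs come from the annotation and do not show which 3′ end the cells used. In 8 H2A and H2B pairs the genes stood head to head, 219 to 331 bases apart. In 6 of these pairs both genes were below 0 in RNA, and in 2 the signs were opposite. The widest gap within a pair was 0.66, between HIST1H2AH (−0.64) and HIST1H2BK (0.02), whose promoter is printed above. The narrowest was 0.03, between HIST2H2AC (−0.17) and HIST2H2BE (−0.20).

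**Figure D1:**
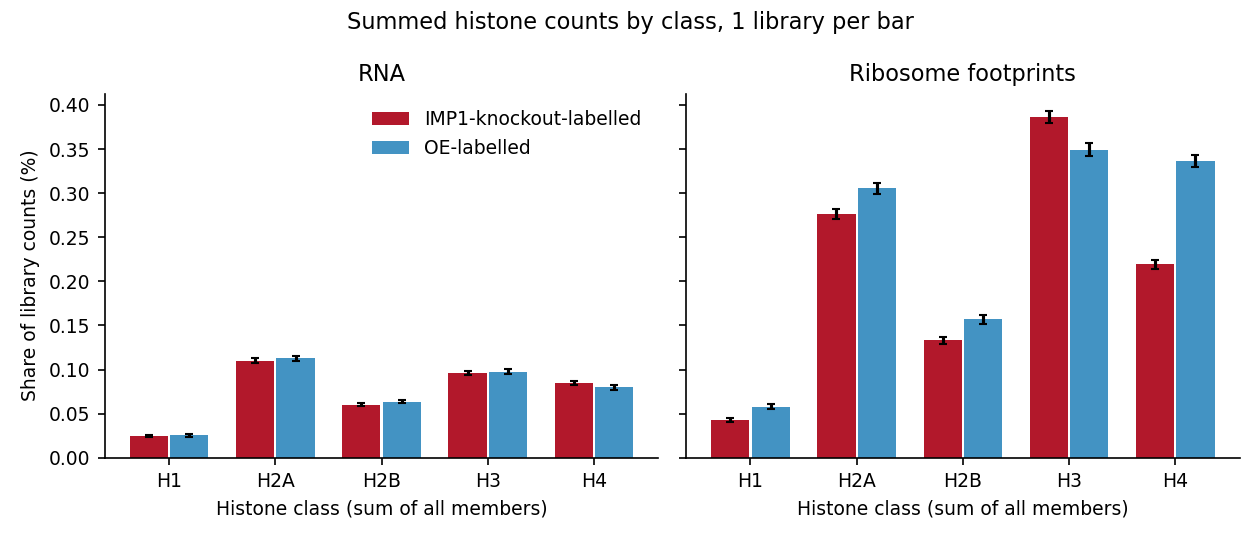
Share of all library counts (%) held by the summed members of each histone class, in RNA (left) and ribosome footprints (right); each bar is 1 library, with exact binomial 95% intervals. In RNA the lines lie close together in every class, whereas in footprints the H4 bar is lower and the H3 bar higher in the knockout-labelled library.

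The footprint libraries, which count ribosome-protected fragments, separated the classes in a way the RNA did not. H4 footprints summed to 7147 counts in the knockout-labelled library and 9201 in the OE-labelled library, 1.56-fold lower (log2 ratio −0.64, −0.69 to −0.60). H3 footprints summed to 12600 in the knockout-labelled library and 9543 in the OE-labelled library, a log2 ratio of 0.12 (0.09 to 0.16). H3 and H4 pair in the same nucleosome core, yet their footprint sums differed in opposite directions. For the linker histone H1, 1409 footprint counts in the knockout-labelled library and 1576 in the OE-labelled library gave −0.44 (−0.54 to −0.33). H2A stood at −0.17 and H2B at −0.26. Over all members the sums were 34495 counts in the knockout-labelled library (1.06%) and 32950 in the OE-labelled library (1.21%), a log2 ratio of −0.21.

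The composition of histone footprints differed accordingly. H3 made up 36.5% of member footprint counts in the knockout-labelled library and 28.96% in the OE-labelled library, while H4 made up 20.7% in the knockout-labelled library and 27.9% in the OE-labelled library. In RNA the shares were alike: 25.6% in the knockout-labelled library and 25.7% in the OE-labelled library for H3, and 22.5% in the knockout-labelled library and 21.01% in the OE-labelled library for H4. Per kilobase of coding sequence, which allows classes of different length to be set side by side, summed H3 footprints were 9403 CPM in the knockout-labelled library and 8497 CPM in the OE-labelled library. For H4 these sums per kilobase were 7026 CPM in the knockout-labelled library and 10792 CPM in the OE-labelled library. The order of H3 and H4 was thus opposite in the 2 lines. H2B was the lowest core class per kilobase in both, at 3497 CPM in the knockout-labelled library and 4117 CPM in the OE-labelled library.

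HIST1H4J and HIST1H4K, which encode the same H4 protein from identical coding sequences, held the larger part of the H4 footprint difference. HIST1H4J (ENST00000355057, chr6:27824108-27824480, plus strand) had 1951 footprint counts in the knockout-labelled library and 3037 in the OE-labelled library, a log2 ratio of −0.91 (−0.998 to −0.83). HIST1H4K (ENST00000611927, chr6:27831216-27831527, minus strand) had 1271 in the knockout-labelled library and 2283 in the OE-labelled library, a log2 ratio of −1.12 (−1.22 to −1.02). Their RNA differed far less. HIST1H4J had 1282 RNA counts in the knockout-labelled library and 954 in the OE-labelled library (−0.02, −0.14 to 0.10). HIST1H4K had 808 in the knockout-labelled library and 631 in the OE-labelled library (−0.09, −0.24 to 0.06). Because footprints from the coding sequence cannot be assigned to either gene, the pair is best read as a sum. Summed, its footprint ratio was −0.9997 (−1.06 to −0.94) and its RNA ratio −0.05 (−0.14 to 0.05). The pair held 45.1% of H4 footprint counts in the knockout-labelled library and 57.8% in the OE-labelled library, and 36.2% of H4 RNA counts in the knockout-labelled library and 36.6% in the OE-labelled library.

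Without this pair, the H4 footprint sum was no longer 1.5-fold lower, at a log2 ratio of −0.26. Of the 9 other measured H4 genes, 8 still had a footprint ratio below 0, against 3548 of all 7323 genes tested. These 8 included the identical pair HIST2H4A and HIST2H4B. Of the same 9 genes, 3 were 1.5-fold lower, against 14% of all genes. Per kilobase, H4 footprints without the pair were 3859 CPM in the knockout-labelled library and 4552 CPM in the OE-labelled library, below H3 in both lines. HIST1H4L had 63 footprint counts in the knockout-labelled library and 128 in the OE-labelled library, the lowest footprint ratio of all members (−1.29, −1.76 to −0.85). HIST1H4D had 291 in the knockout-labelled library and 408 in the OE-labelled library (−0.76, −0.99 to −0.54), and HIST1H4A stood at −0.85. HIST4H4, alone on chromosome 12, shared no 30-base coding stretch with another member, although shorter footprints could still be shared. It had 652 footprint counts in the knockout-labelled library and 531 in the OE-labelled library, a ratio of 0.02 (−0.15 to 0.19). HIST1H4C, likewise without a shared 30-base stretch, stood at −0.03. The H4 genes thus differed among themselves.

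Over all 53 measured members, 9 were 1.5-fold lower in footprints, against 14% of all 7323 genes tested, and 2 were 1.5-fold higher, against 15%. At 2-fold, 2 were lower, against 4.44% of all genes, and none was higher, against 4.66%. The median was −0.21, against 0.02 for all genes, and 38 members lay below 0. Over all members the share of lower genes was thus near the background, but H4 supplied 5 of the 9. Among these 5 was the identical pair HIST1H4J and HIST1H4K. The lower genes outside H4 were HIST1H2AB (−0.76), HIST3H2BB (−0.64), HIST1H1B (−0.63) and HIST1H2AG (−0.63). HIST1H2AG had 783 footprint counts in the knockout-labelled library and 1001 in the OE-labelled library. Both higher genes encode H3. HIST3H3, known as a testis-associated H3 gene, had 205 footprint counts in the knockout-labelled library and 85 in the OE-labelled library, a log2 ratio of 0.99 (0.62 to 1.38). HIST1H3C had 652 in the knockout-labelled library and 328 in the OE-labelled library (0.71, 0.52 to 0.91). The next highest were HIST1H3I (0.58), HIST1H3D (0.52) and the H2B gene HIST1H2BB (0.44).

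**Figure D2:**
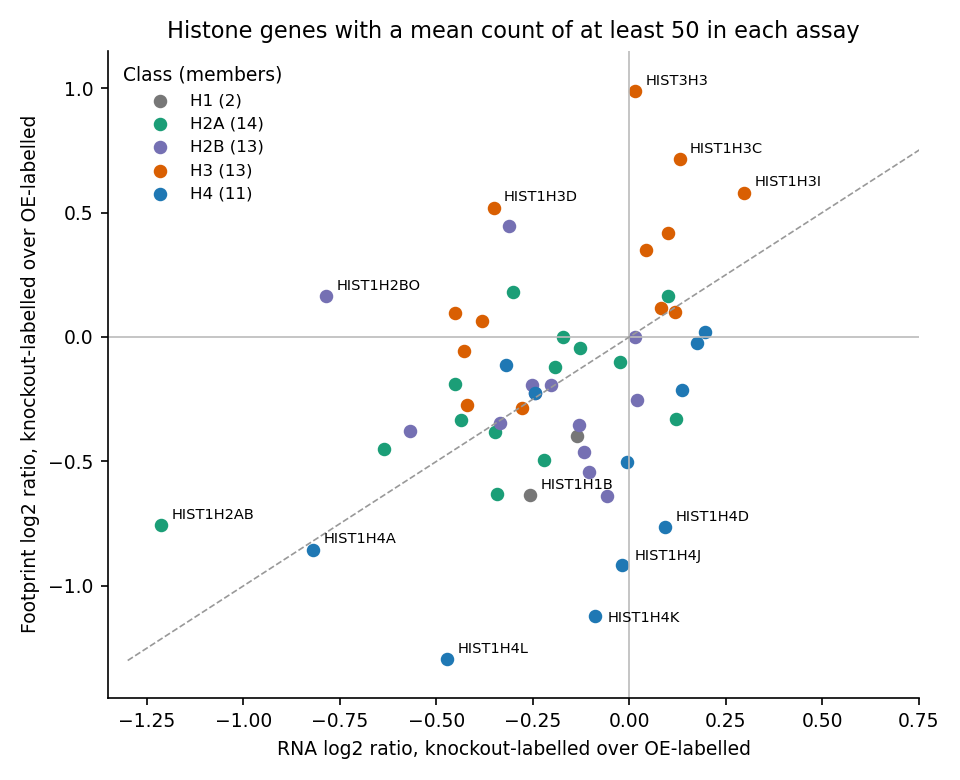
Log2 ratio of ribosome footprints (vertical) against log2 ratio of RNA (horizontal), knockout-labelled over OE-labelled, for the 53 measured histone genes, coloured by class; on the dashed line both ratios are equal. Most points lie near or left of 0 on the RNA axis, with H3 genes towards the top and HIST1H4A, HIST1H4J, HIST1H4K and HIST1H4L at the bottom.

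Translational efficiency, the footprint ratio over the RNA ratio, separated H3 from H4 in these libraries. Of 13 H3 genes, 11 had an efficiency ratio above 0, with a class median of 0.32, and for 6 the interval lay wholly above 0. Of 11 measured H4 genes, 9 lay below 0, with a median of −0.35, and for 6 the interval lay wholly below 0. These 6 included the identical pairs HIST1H4J with HIST1H4K and HIST2H4A with HIST2H4B, whose footprints cannot be told apart. Such intervals were not counted over all genes, so the counts for H3 and H4 have no background. As class sums, H3 stood at 0.26 (0.19 to 0.32) and H4 at −0.61 (−0.68 to −0.54), so H4 was 1.53-fold lower. Without HIST1H4J and HIST1H4K the H4 sum stood at −0.24, inside 1.5-fold. H1 stood at −0.29 (−0.44 to −0.14), whereas H2A (−0.01) and H2B (−0.06) had intervals that included 0. No class difference can be tested with 1 library per line and assay.

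Over all members, 4 were 1.5-fold lower in efficiency, against 12.9% of all 7260 genes tested, and 4 were 1.5-fold higher, against 13.4% (with total-count scaling, 16.5% of all genes were lower and 10.5% higher). At 2-fold, 1 was lower, against 3.6% of all genes, and none was higher, against 3.65%. The member median was 0.02, against −0.00 for all genes. Neither count was above its background share, but the 4 lower genes all encode H4, among them the identical pair HIST1H4J and HIST1H4K. HIST1H4K stood at −1.03 (−1.21 to −0.85), HIST1H4J at −0.90 (−1.04 to −0.75), HIST1H4D at −0.86 (−1.19 to −0.52) and HIST1H4L at −0.82 (−1.52 to −0.12). The H2B gene HIST3H2BB followed at −0.58. The 4 higher genes encode H3 or H2B. HIST3H3 stood at 0.97 (0.37 to 1.58), HIST1H2BO at 0.95 (0.58 to 1.32), HIST1H3D at 0.87 (0.57 to 1.17) and HIST1H2BB at 0.76 (0.12 to 1.40), with HIST1H3C next at 0.58.

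HIST1H2BO and HIST1H3D reached these ratios through opposite signs in the 2 assays. HIST1H2BO had 326 footprint counts in the knockout-labelled library and 240 in the OE-labelled library, with lower RNA in the knockout-labelled library. The interval of its footprint ratio (0.16, −0.08 to 0.41) included 0. HIST1H3D had 712 footprint counts in the knockout-labelled library and 410 in the OE-labelled library (0.52). Its RNA counts were 288 in the knockout-labelled library and 270 in the OE-labelled library (−0.35). HIST1H2BB also had opposite signs, −0.31 (−0.73 to 0.11) in RNA and 0.44 (−0.06 to 0.98) in footprints. It rested on few counts, with 86 footprints in the knockout-labelled library and 52 in the OE-labelled library. Among well-counted H3 genes, HIST1H3H had an efficiency ratio of 0.55 (0.36 to 0.73) and HIST1H3G one of 0.44 (0.25 to 0.64). HIST2H3A (0.03) and HIST2H3C (−0.02), whose listed transcripts are identical, stood near 0, as did HIST1H3B (−0.01). Their RNA counts were 1185 (HIST2H3A) and 1189 (HIST2H3C) in the knockout-labelled library, and 823 (HIST2H3A) and 804 (HIST2H3C) in the OE-labelled library. Of the other identical pairs, the sum of HIST2H2AA3 and HIST2H2AA4 had an efficiency ratio of 0.00 (−0.11 to 0.12). The sum of HIST2H4A and HIST2H4B had one of −0.43 (−0.63 to −0.23).

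**Figure D3:**
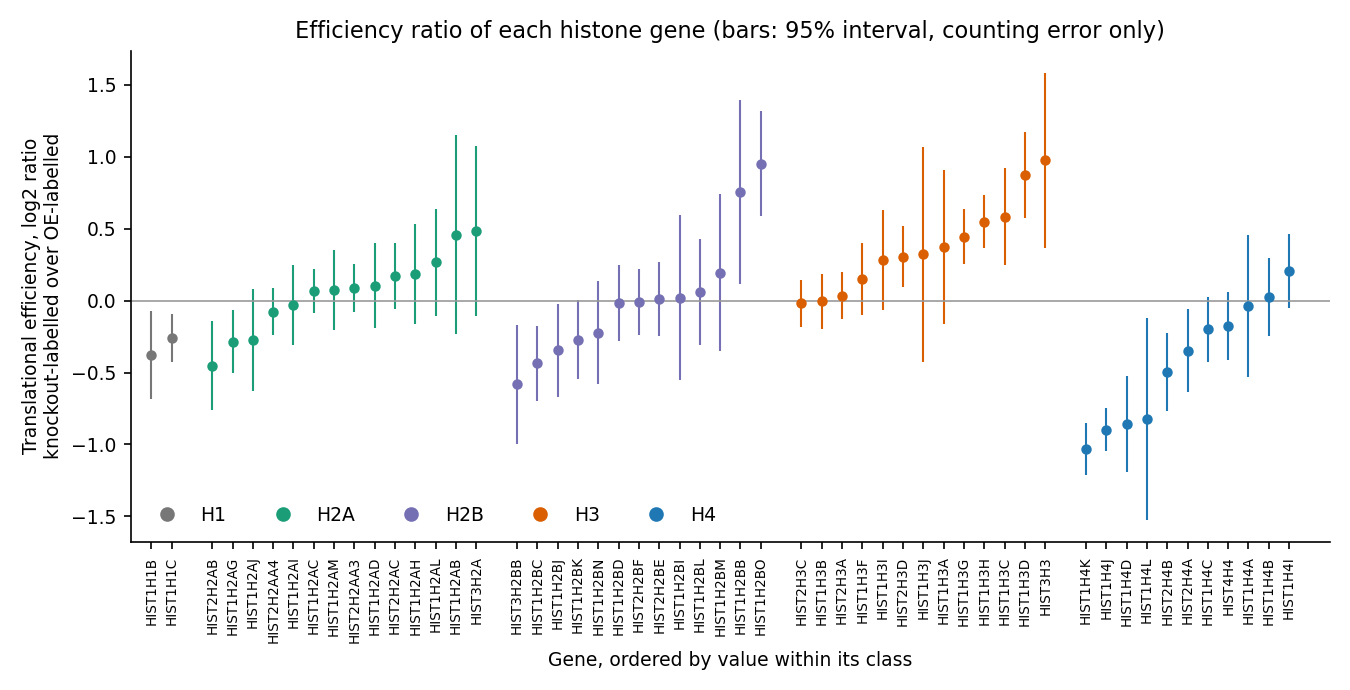
Translational efficiency log2 ratio, knockout-labelled over OE-labelled, of each measured histone gene, ordered within its class; bars are 95% intervals from counting error alone. The lowest 4 genes are all H4 (−1.03 to −0.82), among them the identical pair HIST1H4J and HIST1H4K, while 11 of 13 H3 genes lie above 0.

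Within each line, histone mRNAs carried many more footprints per RNA count than the typical gene. The median log2 of footprint CPM over RNA CPM was 1.46 for members against 0.19 for all genes in the knockout-labelled line. In the OE-labelled line it was 1.44 for members against 0.26 for all genes. In the knockout-labelled line all 53 members lay above the all-gene median, and in the OE-labelled line 52 did, the exception being HIST1H2BB (0.16). This ratio also depends on how much of a transcript is coding: a median of 100% of the listed transcript was coding in members (median length 411 bases), against 54.5% in all genes (2927 bases). The part of coding share in the result was not tested.

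By class medians over genes, H3 had the highest footprints over RNA in both lines, 2.08 in the knockout-labelled line and 1.82 in the OE-labelled line. By class sums, H3 (2.00015) was above H4 (1.37) in the knockout-labelled line, whereas H3 (1.84) was below H4 (2.08) in the OE-labelled line. The order in the OE-labelled line thus depended on the summary. The median of H4 was 1.095 in the knockout-labelled line and 1.70 in the OE-labelled line. That of H2A was 1.38 in the knockout-labelled line and 1.31 in the OE-labelled line. On this scale, 10 of 13 H3 genes were higher in the knockout-labelled line but 1 of 11 H4 genes was. This restates the efficiency ratio from the same counts with total-count scaling and is not a separate result. The share over all genes was not counted. HIST1H4K had 1.72 in the knockout-labelled line and 2.84 in the OE-labelled line, the highest value of any member in the OE-labelled line. HIST1H4J had 1.67 in the knockout-labelled line and 2.66 in the OE-labelled line. In the knockout-labelled line these 2 genes lay within the range of the H3 genes and of HIST1H4I (1.81) and HIST1H4B (1.73), so it was in the OE-labelled line that the pair stood apart from other H4 genes. The highest members in the knockout-labelled line were HIST1H3C (2.42) and HIST3H3 (2.42).

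**Figure D4:**
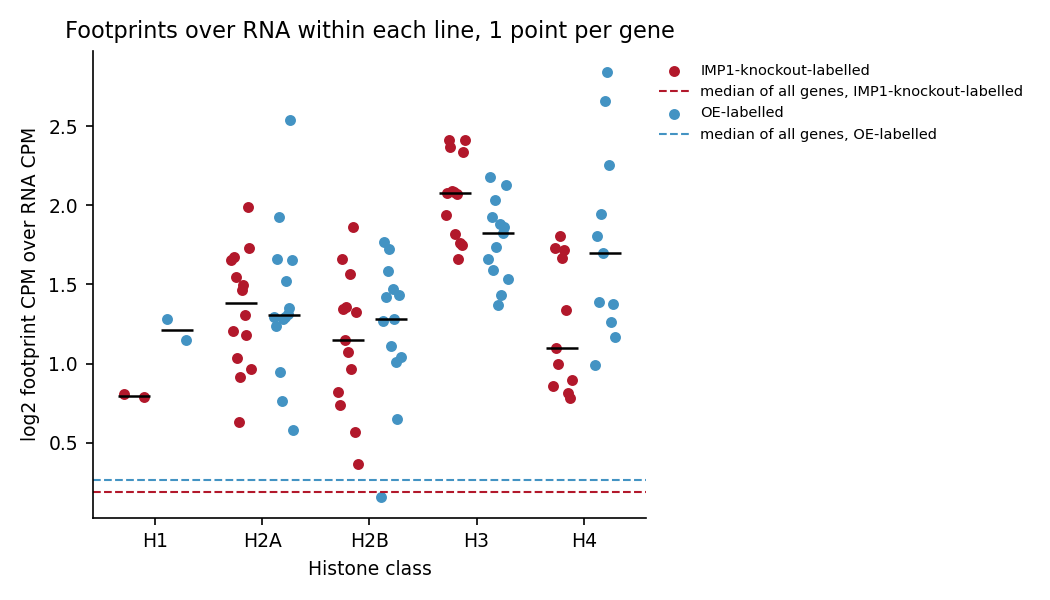
Log2 of footprint CPM over RNA CPM within each line, 1 point per measured histone gene, by class; black bars are class medians and dashed lines the medians of all genes measured in both assays. Nearly every member lies above the dashed lines, and the H4 points spread upwards in the OE-labelled line, where HIST1H4J and HIST1H4K reach 2.66 and 2.84.

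Genes that act on histone mRNAs were described next, from lists that were not independent of earlier results on these data. Of 19 genes of histone transcription and 3′ end processing, 2 were 1.5-fold higher and 2 lower in RNA, against 10.5% of all genes each way, with a median of 0.15. SLBP, the stem-loop-binding protein, was lower in both assays. It had 166 RNA counts in the knockout-labelled library and 256 in the OE-labelled library, a log2 ratio of −1.07 (−1.36 to −0.78). Its footprint counts were 88 in the knockout-labelled library and 189 in the OE-labelled library (−1.37, −1.76 to −1.01). NPAT, the S-phase activator of histone transcription, had 162 RNA counts in the knockout-labelled library and 188 in the OE-labelled library (−0.66, −0.97 to −0.35). Its footprint counts were 116 in the knockout-labelled library and 61 in the OE-labelled library (0.65), so its efficiency ratio was 1.30 (0.77 to 1.84). The higher genes in RNA were LSM10 (0.95) and LSM11 (0.65), both subunits of the U7 particle that cleaves histone pre-mRNA. In footprints, 16 genes were measured, of which SLBP was lower and NPAT and ZNF473 (0.80), a U7-associated zinc finger protein, were higher. Of all genes, 14% were lower and 15% higher in footprints. The most counted genes of the list in RNA lay inside 1.5-fold: SNRPB (0.25), NCBP2 (0.19), CPSF2 (0.30) and CPSF3 (−0.27), the nuclease that cleaves the pre-mRNA.

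Of 10 genes of histone mRNA translation and decay, 2 were 1.5-fold higher in RNA and none lower, against 10.5% of all genes each way. They were DCP2 (0.96), a decapping enzyme, and LSM1 (0.63), a subunit of the ring that binds decaying mRNA 3′ ends. ERI1, an exonuclease that trims the histone stem-loop, had 257 footprint counts in the knockout-labelled library and 91 in the OE-labelled library, a log2 ratio of 1.22 against 0.52 in RNA. UPF1, a helicase needed for histone mRNA decay, was 0.05 in RNA and 0.58 in footprints. DCP2 was also higher in footprints (2.41), on 125 counts in the knockout-labelled library and 19 in the OE-labelled library. XRN1, an exonuclease that degrades mRNA from its 5′ end, stood at 0.25 in RNA and 0.11 in footprints. LSM4, of the same ring as LSM1, was lower in footprints (−1.06). It had 20449 footprint counts in the knockout-labelled library and 35110 in the OE-labelled library, against 1584 RNA counts in the knockout-labelled library and 1535 in the OE-labelled library. This excess of footprints over RNA was present in both lines.

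Replacement variants, which are made outside S phase as well, had higher medians than the replication-dependent genes: 0.22 in RNA and 0.38 in footprints over 12 genes. In RNA 2 were 1.5-fold higher and none lower, against 10.5% of all genes each way. In footprints 5 were higher, against 15% of all genes, and 1 was lower, against 14%; 3 of the 5 were H3F3A, H3F3B and H3F3C. The linker variant H1F0, associated with differentiated and non-dividing cells, had 6010 RNA counts in the knockout-labelled library and 2655 in the OE-labelled library, a log2 ratio of 0.73 (0.67 to 0.80). H1FX stood at 0.54 in RNA and 0.46 in footprints. H1F0 and H1FX thus lay above 0 in both assays, where the replication-dependent HIST1H1B and HIST1H1C lay below it. H3F3A and H3F3B, which encode the same replacement H3, stood at 0.61 and 0.63 in footprints. Their RNA ratios were −0.10 for H3F3A and 0.35 for H3F3B. H3F3C, a close copy of H3F3B whose counts are therefore uncertain, stood at 0.61 in footprints. H2AFX, the variant phosphorylated at DNA breaks, was 0.33 in RNA and −0.61 in footprints, with an efficiency ratio of −0.94 (−1.24 to −0.65). Among the rest, H2AFY2 was higher in RNA (0.84) and footprints (1.05), H2AFZ stood at −0.22 in RNA and −0.47 in footprints, and the centromeric CENPA at −0.02 and 0.28. H2AFJ (0.41), H2AFY (0.08) and H2AFV (−0.06) lay inside 1.5-fold in RNA, as they did in footprints.

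Chaperones that carry histones to DNA had a median of −0.12 in RNA (20 genes, 1 higher and 1 lower) and −0.16 in footprints (19 genes, 1 higher and 3 lower). Of all genes, 10.5% were higher and 10.5% lower in RNA, and 15% higher and 14% lower in footprints. ASF1A, a chaperone of the H3 and H4 dimer, was higher in RNA (0.71) and in footprints (1.02), while its paralogue ASF1B stood at −0.19 in RNA. CHAF1B, a subunit of the CAF-1 complex that deposits replication-coupled H3, was lower in RNA (−0.66). The lower genes in footprints were DAXX (−1.60) and HIRA (−0.77), which load replacement H3, and SET (−0.72), a relative of the NAP1 chaperones. The most counted chaperone genes in RNA were SET (−0.23), SSRP1 (0.02), NAP1L1 (−0.41) and NAP1L4 (0.22).

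Genes of S phase and DNA replication are given because histone mRNA levels follow replication. Their median was −0.08 in RNA (30 measured of 33) and −0.26 in footprints (29 measured), against all-gene medians of 0.01 and 0.02. With total-count scaling the RNA median of the list was 0.0337. In RNA 2 were higher, CDC45 (0.74) and RFC4 (0.61), and 2 lower, among them UNG (−1.09), a DNA repair glycosylase, against 10.5% of all genes each way. In footprints 1 was higher, RFC5 (0.76), against 15% of all genes, and 6 lower, against 14%. Among the lower genes were TYMS (−1.03), UNG (−0.996), RFC3 (−0.87), MCM7 (−0.72) and GINS2 (−0.69). MCM7, a subunit of the replicative helicase, had 2075 footprint counts in the knockout-labelled library and 2825 in the OE-labelled library. Among other highly counted genes of the list, the ribonucleotide reductase subunits RRM1 and RRM2 stood at 0.20 and 0.05 in RNA, and the helicase subunits MCM4 and MCM6 at −0.32 and 0.01. The share of cells in S phase was not measured, and its part in the histone results was not tested.

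**Figure D5:**
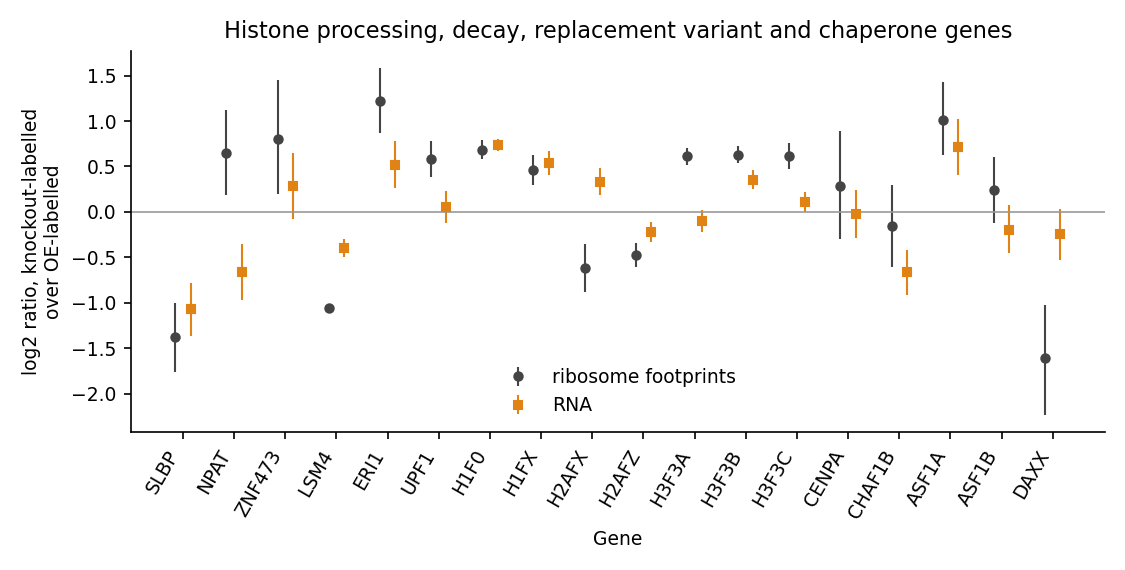
Log2 ratio, knockout-labelled over OE-labelled, of ribosome footprints (circles) and RNA (squares) for selected genes that process, degrade, replace or chaperone histones; bars are 95% intervals from counting error alone, and the interval of LSM4 footprints is narrower than its symbol. SLBP lies below 0 in both assays, NPAT on opposite sides, and H3F3A, H3F3B and H3F3C together near 0.6 in footprints.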

How the data were processed

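The deposited files hold raw counts, whole numbers for 19192 genes in 4 libraries, and name 1 transcript per gene. Per the labels, RNA was total RNA depleted of ribosomal RNA, linkers carried random identifiers of 4 and 5 nt, and 15 PCR cycles followed. The tools HISAT2 2.1.0, Bowtie 1.1.2 and cutadapt 1.10 and the build GRCh38 appear in the submitters' processing notes, without roles. Not given in the sources used here are the counter, how it treated reads with several matches, which part of a transcript was counted, and whether duplicates were collapsed.

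Samples were grouped by genotype label and assay. Each assay was scaled on its own with TMM factors (edgeR 4.0.16, R 4.3.3), and 0.5 was added before log2 ratios were taken. Genes needed a mean count of 50 in the assay, or in both assays for efficiency. A called gene is one at least 1.5-fold different; no p-value was computed. Ratio intervals are exact conditional binomial (Clopper-Pearson) and, for efficiency, Wald. Footprints over RNA within a line used total counts. The steps were tested on simulated counts. Members, lists and named genes were chosen with earlier results of these data known. Named are the 4 members of each class with the most RNA counts, the 5 highest and 5 lowest of each ratio, identical pairs, SLBP, NPAT, the measured replacement variants and listed genes 1.5-fold different; other members and listed genes were named after their values were seen. A few listed genes and markers are not reported here. Transcripts are those of GENCODE release 29, in which 19176 of 19192 identifiers and all 60 members were found. Software was Python 3.11.15 with scipy 1.17.1, numpy 2.4.6, matplotlib 3.10.9 and pandas 2.3.3. As alternatives, scaling by total counts, upper-quartile factors or DESeq2 1.42.0 size factors was tried, with other count minimums, 5 added to each count, a 2-fold threshold and sums without some members.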

Additional observations from a re-analysis of the deposited data

How the results depend on the processing

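No paired analysis was possible because each line gave 1 library per assay and the labels carry no replicate numbers. Of 263 values recomputed for member counts, medians, class sums and lists, 217 stayed near the reported value, 46 moved and no called value reversed. Of the class sums and medians, 7 changed sign, all inside 1.5-fold. These were the H4 sum in RNA (below), the all-member sum in efficiency (below), the H2A sum in efficiency (0.0334 with upper-quartile factors) and the member median in efficiency (−0.0752 with total counts, −0.0079 with a minimum of 200 or none). With total counts they also were the S-phase medians in RNA (0.0337) and efficiency (−0.0788) and the processing-list median in efficiency (−0.0507). A 2-fold threshold left 1 member lower in RNA, 2 lower and 0 higher in footprints, and 1 lower and 0 higher in efficiency. A count minimum of 200 left 2 lower in RNA, 5 lower and 1 higher in footprints, and 2 higher in efficiency. A minimum of 10 gave 1 higher in RNA; no minimum gave 3 higher in RNA and 9 lower in efficiency. With total counts, RNA sums were −0.0303 (H1), −0.0365 (H2A), −0.0786 (H2B), −0.0146 (H3), 0.0876 (H4) and −0.0104 (all), and efficiency −0.11 (H2A), −0.16 (H2B), 0.16 (H3), −0.71 (H4) and −0.18 (all). Total counts moved the share of all genes called in RNA to 15.1% higher and 7.57% lower. Upper-quartile factors gave all members −0.18 in footprints and −0.0351 in efficiency. Without the most counted member of each class, RNA sums were −0.21 (H2A) and −0.16 (all), footprint sums −0.56 (H1), −0.24 (H2A), −0.52 (H4) and −0.18 (all), and efficiency −0.49 (H4) and −0.0195 (all). The next alternatives were added after the data were seen. Keeping members with at least 50% unique 30-base stretches left 2 lower in efficiency. It gave RNA sums of −0.25 (H3) and −0.17 (all), footprint sums of −0.23 (H4) and −0.0988 (all), and efficiency of 0.38 (H3), −0.18 (H4) and 0.0688 (all). Without HIST1H4J and HIST1H4K, 2 members were lower in efficiency, footprint sums were −0.26 (H4) and −0.0976 (all), and efficiency −0.24 (H4) and 0.0369 (all). Other scaling keeps every gene and shifts all ratios of a comparison alike. With total counts the all-gene median shifted by 0.1171 in RNA, 0.0217 in footprints and −0.0955 in efficiency. With upper-quartile factors it shifted by −0.0221 in RNA, 0.0255 in footprints and 0.0476 in efficiency. The remaining alternatives changed which genes or members were kept or called, and the cause of their moves was not tested further.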
